A study of Homo sapiens with 12 samples.

Results

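The genes described here are the neutrophil-attracting chemokine genes CXCL1, CXCL2, CXCL3, CXCL5, CXCL6 and CXCL8, together with CCL20. They were chosen by name, and all 7 were found on 1 row each among the 33514 gene symbols of the single-cell count tables. The tables come from SCC1, SCC6 and SCC25, which are 3 established human lines of squamous carcinoma of the head and neck (HNSCC). Cultures were given either 100 nM cetuximab, a therapeutic antibody against the receptor EGFR, or phosphate-buffered saline (PBS, the untreated control) daily for 5 days. Every group of line and treatment had 2 replicates, which gives 6 groups and 12 samples. All cells grew in the same serum-containing medium as cultures of tumour cells alone, and the study chose the lines because cetuximab slows their growth. Expression was measured with 10x Chromium 3′ single-cell libraries, in which each captured mRNA molecule counts as 1 unique molecular identifier (UMI).

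The CXC members carry a glutamate-leucine-arginine motif ahead of their paired cysteines and draw neutrophils through the receptor CXCR2. CXCL8 (interleukin-8) and CXCL6 also bind CXCR1. CCL20 acts through a different receptor, CCR6, and draws memory T cells of the Th17 kind, B cells and immature dendritic cells to epithelia. Epithelial cells are known to make these mRNAs in bursts after IL-1, TNF or IL-17, with NF-κB acting at the promoters and with short-lived transcripts that carry AU-rich elements. In squamous carcinomas the family is best known for recruiting neutrophils and new vessels, and EGFR signalling can raise CXCL8 as well.

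The 6 CXC genes lie in 1 cluster on chromosome 4, between positions 73740569 and 74099195 of the GRCh38.p14 assembly (a stretch of 359 kb), while CCL20 lies on chromosome 2, from 227813842 to 227817556. The stretch of RefSeq promoter around the NF-κB-type motif is shown for each gene because it is what the 6 CXC members share apart from their function. All 7 genes had a RefSeq promoter, and all windows lie upstream of the transcription start of the gene, written 5′ to 3′ on the strand of the gene. Capitals mark GGAATTTCC in the CXC genes and GGAAAACCC in CCL20.
CXCL8 (chr4:73740458-73740516, plus strand): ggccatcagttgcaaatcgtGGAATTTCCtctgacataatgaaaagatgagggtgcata
CXCL1 (chr4:73869295-73869353, plus strand): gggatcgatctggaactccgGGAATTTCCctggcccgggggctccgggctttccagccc
CXCL2 (chr4:74099234-74099292, minus strand): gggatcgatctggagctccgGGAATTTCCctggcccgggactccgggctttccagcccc
CXCL3 (chr4:74038729-74038787, minus strand): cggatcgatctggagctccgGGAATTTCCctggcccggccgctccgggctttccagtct
CXCL5 (chr4:73998729-73998787, minus strand): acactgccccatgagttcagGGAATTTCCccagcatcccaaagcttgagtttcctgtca
CXCL6 (chr4:73836569-73836627, plus strand): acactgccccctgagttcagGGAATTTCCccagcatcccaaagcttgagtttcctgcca
CCL20 (chr2:227813743-227813801, plus strand): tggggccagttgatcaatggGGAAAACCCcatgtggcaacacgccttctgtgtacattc

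GGAATTTCC, searched on both strands in the 250 bases upstream of the start, was found in 6 of the 7 genes and in 145 of 35116 RefSeq promoters (0.413%). In the CXC genes it began between 91 bases (CXCL8) and 77 bases (CXCL2) upstream of the start, always in the forward orientation. GGAAAACCC began 79 bases upstream in CCL20 and was found in 137 promoters in all (0.39%). The AP-1 motif TGACTCA was found among the members in CXCL8 alone, 137 bases upstream, against 4.2% of all promoters. The CXCL5 and CXCL6 windows were identical at 57 of 59 bases and those of CXCL1 and CXCL3 at 53 of 59, while the CXCL8 window matched those of the other CXC genes at 19 to 22 bases, all counted without gaps. These are matches of letters and were not tested as binding sites.

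The tables hold 23914 cells, with 961 to 2854 per sample, 57057402 to 112170073 UMIs per sample and a median of 24079 to 54864 UMIs per cell. Pairs of samples of the same group shared 3 to 10 cell barcodes, and pairs from different groups 1 to 13. Of the 10 squamous markers, all had UMIs in every line, but their levels differed. SCC6 had KRT5 at 0.967 to 4.57 UMIs per 1000000 UMIs of the sample (CPM) and KRT14 at 0.379 to 2.58 CPM, far below SCC1, where KRT5 stood at 370.5 CPM or more. SCC6 carried KRT17 at 440 to 2449 CPM and SFN at 112 to 418 CPM. In SCC1 these stood at 3465 to 7607 CPM and 820 to 955 CPM. DSG3 (0.146 to 0.229 CPM), KRT6A (2.92 to 19.99 CPM) and EPCAM (101 to 266 CPM) were also lower in SCC6. Their SCC1 ranges were 9.24 to 12.3, 34.5 to 50.9 and 284 to 409 CPM. TP63 and CDH1 overlapped between these lines. LAMB3 went the other way, at 96.7 and 85.9 CPM in untreated SCC6 against 35.6 and 39.2 CPM in untreated SCC1. The summed neutrophil markers stayed between 0.124 and 2.21 CPM and the lymphocyte markers between 0.0701 and 2.57 CPM. The summed macrophage markers reached 14.3 CPM in untreated SCC1 replicate 2, of which CD14 alone made up 14.0 CPM. In that sample CSF1R stood at 0.228 CPM and FCER1G at 0.0218 CPM. PTPRC, CD163, C1QA, C1QB, TYROBP and LYZ had no UMI there. Of the receptor genes, CXCR1 and the decoy receptor ACKR1 had no UMI in any sample, CXCR2 reached 0.152 CPM and CCR6 reached 0.112 CPM. Genes that these cells should lack (PTPRC, CD3E, ALB and HBB) had a UMI in at most 0.1004% of cells of a sample at the depth used below. This is called the background below, and it holds for genes that no cell makes. Carry-over of a member's own mRNA from cells rich in it was not measured.

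CXCL8, the neutrophil chemokine that also binds CXCR1, was detected in every sample, and among untreated samples those of SCC25 had the lowest levels. In untreated SCC1 it stood at 74.0 and 65.1 CPM in replicates 1 and 2. In untreated SCC6 the values were 215.5 and 72.4 CPM, and in untreated SCC25 they were 6.46 and 6.68 CPM. The SCC1 and SCC25 replicates lay close together, while those of SCC6 differed 2.98-fold. With edgeR's quasi-likelihood test and Benjamini-Hochberg adjustment over all 17897 genes tested, CXCL8 was higher in SCC6 than in SCC25 by 4.62 ± 1.33 on the log2 scale (SE, n = 2 per group, false discovery rate (FDR) 0.0186). That call was lost without SCC6 PBS replicate 1 (3.56, FDR 0.0874), SCC25 PBS replicate 1 (4.54, FDR 0.0897) or SCC25 PBS replicate 2 (4.70, FDR 0.0855). The difference of SCC25 from SCC1 was −3.21 ± 1.25 (edgeR FDR 0.0631) and passed with a replicate block shared by the lines (FDR 0.0246). The difference between SCC6 and SCC1 was 1.41 ± 1.16 (edgeR FDR 0.366), and it passed narrowly on the 6 untreated samples alone (FDR 0.0485).

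CXCL1, known as melanoma growth-stimulating activity, differed widely between lines. Untreated SCC1 had 61.0 and 71.8 CPM (3811 and 6596 UMIs) and untreated SCC25 had 17.5 and 14.0 CPM. In untreated SCC6, 4 and 6 UMIs were counted in the whole of each sample. SCC6 was thus close to the limit of detection in every sample, and its 2 cetuximab samples held 2 and 0 UMIs. The UMIs of both untreated samples gave a ratio of SCC1 to SCC6 of 1369 (exact 95% interval 744 to 2856, counting error only). The ratio of SCC25 to SCC6 was 313 (170 to 654). By edgeR the difference between SCC6 and SCC1 was −10.04 ± 1.99 (FDR 0.00275) and that between SCC6 and SCC25 was −8.14 ± 1.90 (FDR 0.00670). The latter rose to an FDR of 0.0593 without SCC6 PBS replicate 1 and 0.0509 without SCC6 PBS replicate 2. The difference between SCC25 and SCC1 was not called (−1.90 ± 1.28, edgeR FDR 0.265), although it passed in a fit of the 6 untreated samples alone (FDR 0.00130).

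CXCL3, a close relative of CXCL1 that binds CXCR2, was highest in SCC6, the line with the least CXCL1. Untreated SCC6 held 63.6 and 14.1 CPM, a 4.52-fold difference between replicates, against 3.76 and 3.20 CPM in untreated SCC1 and 2.79 and 3.38 CPM in untreated SCC25. Both SCC6 samples lay above all 4 samples of the other lines. The edgeR difference of SCC6 was 3.85 ± 0.77 from SCC1 (FDR 0.00276) and 3.82 ± 0.76 from SCC25 (FDR 0.00295), and SCC25 and SCC1 could not be separated (0.03 ± 0.70, FDR 0.980). Without SCC6 PBS replicate 1 the differences were 2.31 and 2.28, still called. CXCL1, CXCL2 and CXCL3 are close relatives, as are CXCL5 and CXCL6, so reads that fit more than 1 of them could have been lost or split. Their transcript sequences were not compared here. How such reads were handled is not given in the sources used here.

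CXCL2, a close relative of CXCL1 and CXCL3, followed the order SCC1, SCC6, SCC25. The untreated values were 39.3 and 29.97 CPM in SCC1, 16.3 and 9.08 CPM in SCC6, and 5.62 and 6.46 CPM in SCC25, with no overlap between lines. The difference of SCC25 from SCC1 was called by edgeR (−2.31 ± 0.51, FDR 0.00473). The steps from SCC1 to SCC6 (−1.09 ± 0.49, FDR 0.0986) and from SCC25 to SCC6 (1.22 ± 0.49, FDR 0.0702) were not, although both passed with the replicate block shared by the lines (FDR 0.0339 and 0.0391).

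CXCL6 and CXCL5, which share an ancestor and bind CXCR2, were scarce. CXCL6 was present in untreated SCC25 at 0.754 and 0.713 CPM (61 and 80 UMIs), against 1 and 6 UMIs in SCC1 and 3 and 1 UMIs in SCC6. The ratio of untreated SCC25 to SCC1 was 16.1 (exact 95% interval 7.62 to 40.8) and that to SCC6 was 37.1 (14.2 to 138). Both differences were called by edgeR (FDR 0.0455 and 0.0315), but the first was lost with any 1 of 8 samples left out, among them each of the untreated SCC1 and SCC25 samples (FDR 0.0577 to 0.182 over the 8). The second was lost without any 1 of the 4 untreated samples compared (FDR 0.0614 to 0.1505). After thinning cells to 15000 UMIs before summing, neither was called (edgeR FDR 0.147 and 0.0657). CXCL5 had no UMI in the 4 SCC1 samples, which allows up to 0.0526 CPM in the shallowest of them, and 1 or 2 UMIs in each SCC25 sample. SCC6 PBS replicate 1 held 33 CXCL5 UMIs, where the other 3 SCC6 samples held 1 or 2. CXCL5 did not pass the filter on low counts and was not tested.

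CCL20, the CCR6 ligand, was low in each line. Untreated values were 1.42 and 2.02 CPM in SCC1, 3.30 and 0.983 CPM in SCC6, and 4.26 and 5.54 CPM in SCC25. Some of these levels rested in part on single cells. The cell with most CCL20 UMIs held 17 of 89 and 113 of 186 in untreated SCC1 replicates 1 and 2. It held 76 of 331 and 41 of 101 in untreated SCC6, and 29 of 345 and 68 of 621 in untreated SCC25. The SCC6 values spanned those of SCC1, and no pair of untreated lines was called by edgeR (FDR 0.248 to 0.675), although SCC25 against SCC1 passed on the 6 untreated samples alone (FDR 0.0490). Between untreated lines, 2 of the 6 members tested were called for SCC6 against SCC1, where 40.2% of all genes tested were called. For SCC25 against SCC1 it was 2 of 6 against 40.8% of genes, and for SCC6 against SCC25 4 of 6 against 40.9%.

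**Figure D1:**
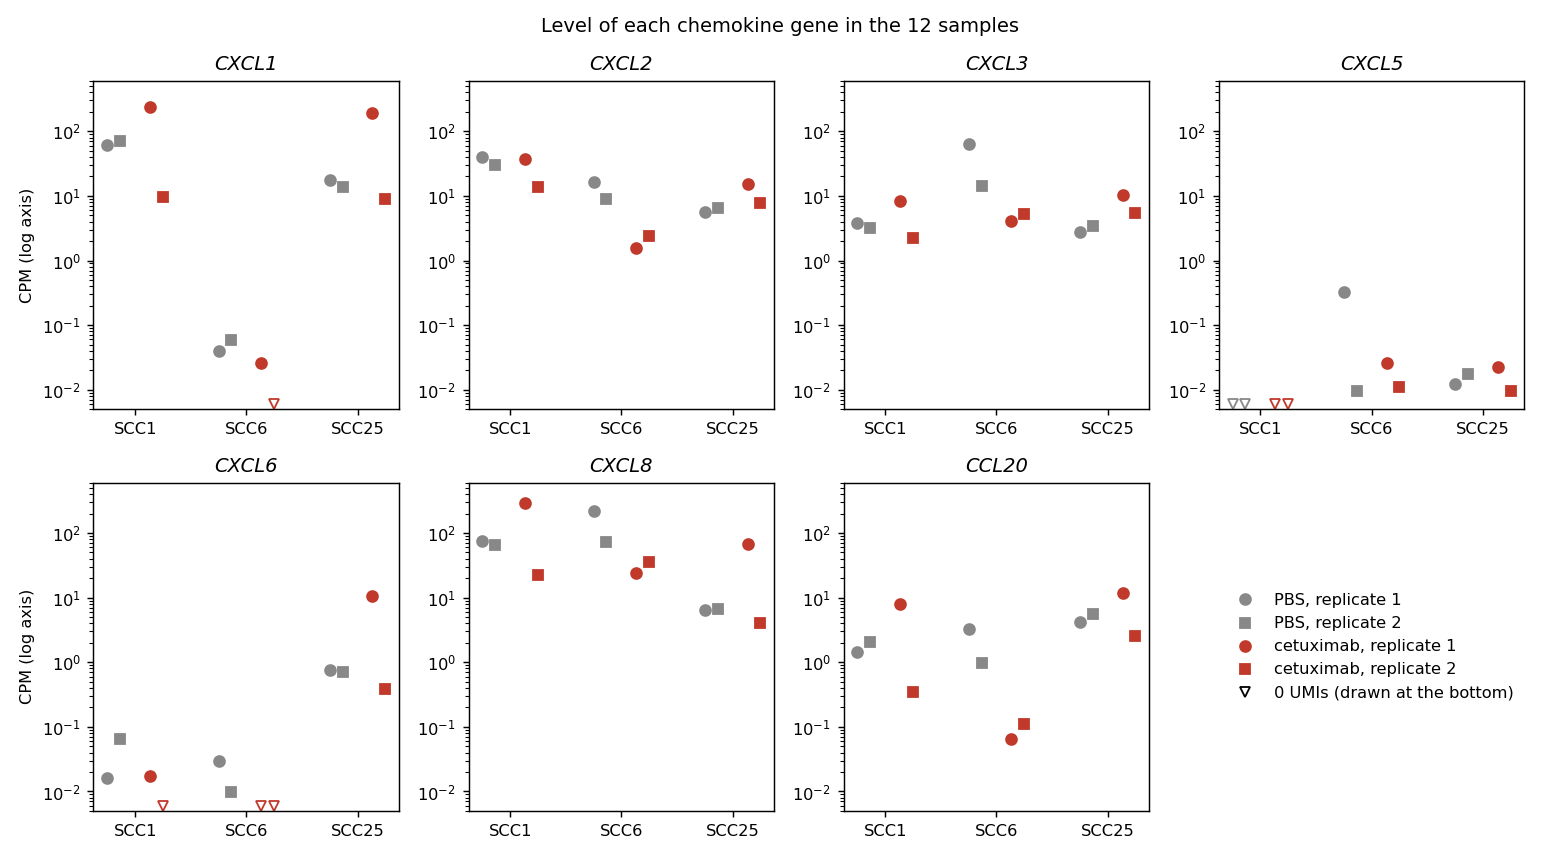
Level of each chemokine gene in the 12 samples, in CPM (log axis). Grey symbols are PBS samples and red symbols cetuximab samples, circles are replicate 1, squares replicate 2, and open triangles at the bottom are samples with 0 UMIs. CXCL1 in SCC6 lies 2 or more decades below the other lines, and cetuximab replicate 1 is above replicate 2 for CXCL1, CXCL2, CXCL3, CXCL8 and CCL20 in SCC1 and SCC25.

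CXCL2 and CXCL3 were lower in cetuximab-treated than in untreated SCC6 cells. CXCL2 stood at 16.3 and 9.08 CPM with PBS and at 1.54 and 2.38 CPM with cetuximab. CXCL3 stood at 63.6 and 14.1 CPM with PBS and at 4.14 and 5.33 CPM with cetuximab. The groups did not overlap in either gene. By edgeR CXCL2 fell by 2.93 on the log2 scale (SE 0.52, FDR 0.0179) and CXCL3 fell by 3.29 (SE 0.74, FDR 0.0399).

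CXCL8 and CCL20 had the same order in SCC6 but missed the threshold. CXCL8 stood at 215.5 and 72.4 CPM with PBS and at 24.2 and 35.2 CPM with cetuximab (−2.53 ± 1.21, edgeR FDR 0.279). CCL20 stood at 3.30 and 0.983 CPM (331 and 101 UMIs) with PBS and at 0.0658 and 0.111 CPM (5 and 10 UMIs) with cetuximab. Of the UMIs with PBS, 76 and 41 came from a single cell in each sample. The edgeR difference of CCL20 was −4.81 ± 1.42 with an FDR of 0.0929. CCL20 passed in DESeq2 (FDR 0.00555), with the replicate block shared by the lines (FDR 0.0414) and in the fit on the 4 SCC6 samples alone (FDR 0.0329), and missed with the block within each line (FDR 0.0566). CXCL1 and CXCL6 were at or near the floor in SCC6 and are given no fold change.

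In all, 2 of the 6 members tested were called in SCC6, both lower, where edgeR called 3.81% of all genes (1.3% lower). Both cetuximab samples lay below both PBS samples in CXCL2, CXCL3, CXCL8 and CCL20, a pattern that 11.6% of all genes tested showed. The CXCL2 and CXCL3 calls were lost when any of 3 SCC6 samples was left out. For CXCL2 these were PBS replicate 1 (−2.39, FDR 0.1502), cetuximab replicate 1 (−2.64, FDR 0.168) and cetuximab replicate 2 (−3.30, FDR 0.0579). For CXCL3 they were PBS replicate 1 (−1.75, FDR 0.305), cetuximab replicate 1 (−3.11, FDR 0.284) and cetuximab replicate 2 (−3.51, FDR 0.124), and it was also lost without SCC1 PBS replicate 1 or 2 (FDR 0.0616 and 0.0617). In the fit on the 4 SCC6 samples alone CXCL3 had an FDR of 0.0662. SCC6 PBS replicate 1 also stood apart in the heat-shock gene HSPA6, with 67.9 CPM against 0.0395 to 0.272 CPM in the other 3 SCC6 samples, and its part in the chemokine values was not tested. The summed fibroblast markers in SCC6 were 0.917 and 2.91 CPM with PBS and 26.5 and 21.7 CPM with cetuximab. Most of this sum was the collagen gene COL1A1, at 0.857 and 2.46 CPM with PBS and 23.1 and 18.9 CPM with cetuximab. DCN, LUM and PDGFRA stayed at or below 0.633 CPM in each SCC6 sample. The part of these genes in the result was not tested either.

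In SCC1 the 2 cetuximab samples lay on opposite sides of the PBS samples for most members, and nothing was called. CXCL8 stood at 74.0 and 65.1 CPM with PBS and at 289 and 22.3 CPM with cetuximab replicates 1 and 2. CXCL1 stood at 61.0 and 71.8 CPM with PBS and at 235 and 9.49 CPM with cetuximab. CXCL3 (8.40 and 2.25 CPM with cetuximab) and CCL20 (8.01 and 0.343 CPM) had the same arrangement around their PBS values. CXCL2, at 37.5 and 13.8 CPM with cetuximab, did not exceed its higher PBS value of 39.3 CPM. Replicate 1 was 13.0-fold above replicate 2 for CXCL8, 24.8-fold for CXCL1 and 23.4-fold for CCL20.

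The edgeR differences in SCC1 were 1.10 ± 1.15 for CXCL8, 0.81 ± 1.25 for CXCL1, 1.18 ± 1.10 for CCL20, 0.55 ± 0.70 for CXCL3 and −0.49 ± 0.48 for CXCL2. All 6 members tested had an FDR between 0.892 and 0.977, and edgeR called 3 genes in all (0.0168%), with 1570 at an unadjusted p under 0.05 and 274 called by DESeq2. The sign of the SCC1 differences rested on single samples. Without cetuximab replicate 1 they were −1.67 for CXCL8, −2.85 for CXCL1, −2.38 for CCL20 and −0.66 for CXCL3.

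SCC25 had the same arrangement of replicates. CXCL1 stood at 17.5 and 14.0 CPM with PBS and at 189 and 9.05 CPM with cetuximab replicates 1 and 2. CXCL8 stood at 6.46 and 6.68 CPM with PBS and at 66.7 and 4.12 CPM with cetuximab. CXCL6 stood at 0.754 and 0.713 CPM with PBS and at 10.7 and 0.382 CPM with cetuximab, and CCL20 at 4.26 and 5.54 CPM against 11.9 and 2.56 CPM. In these 4 genes cetuximab replicate 1 was above and cetuximab replicate 2 below both PBS samples. CXCL2 (5.62 and 6.46 CPM with PBS, 15.3 and 7.82 CPM with cetuximab) and CXCL3 (2.79 and 3.38 CPM against 10.4 and 5.51 CPM) were higher in both cetuximab samples than in both PBS samples, as were 16.3% of all genes tested.

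The edgeR differences in SCC25 were 2.87 ± 1.11 for CXCL6 (FDR 0.787), 2.62 ± 1.32 for CXCL1 and 2.39 ± 1.21 for CXCL8 (both FDR 0.900). They were 1.32 ± 0.70 for CXCL3, 0.90 ± 0.49 for CXCL2 and 0.52 ± 1.06 for CCL20. No gene was called by edgeR in SCC25 (0%), with 1041 at an unadjusted p under 0.05. DESeq2 called 101 (0.639%), none of them a member. Without cetuximab replicate 1 the differences were −0.80 for CXCL1, −0.68 for CXCL8, −0.94 for CXCL6 and −0.95 for CCL20. In SCC25 replicate 1 with cetuximab was 20.9-fold above replicate 2 for CXCL1, 28.0-fold for CXCL6 and 16.2-fold for CXCL8. A ratio over 5 in that direction was found for 3 of the 6 members tested in SCC25 and 3 of 6 in SCC1. CXCL6 in SCC1, with 1 and 0 UMIs, was given no ratio. Of all genes tested 1.44% and 1.51% were over 5-fold higher in replicate 1, which includes genes with 0 UMIs in replicate 2. The limit was set after the ratios of the members were seen, so this contrast is a description and not a test.

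**Figure D2:**
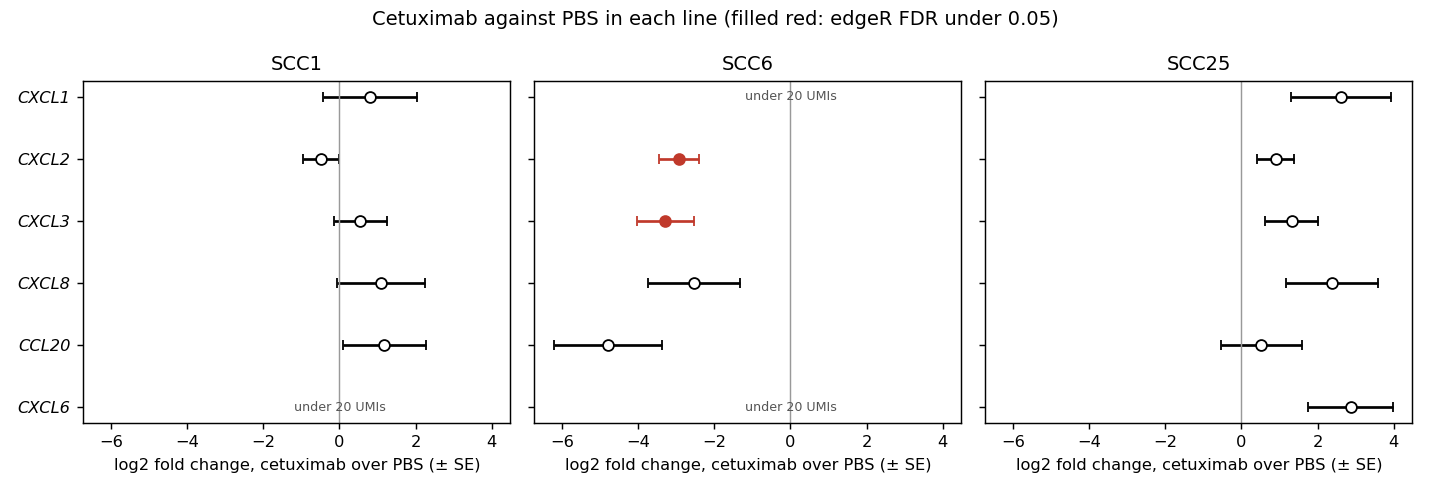
Log2 fold change of cetuximab over PBS for each member in SCC1, SCC6 and SCC25, with the edgeR estimate as a point and its standard error as a bar (2 samples per group). Filled red points passed an FDR of 0.05: CXCL2 (−2.93) and CXCL3 (−3.29) in SCC6. Members with under 20 UMIs in a line have no point, and CXCL5 was not tested.

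With 1 cetuximab effect fitted to the 3 lines together, no member was called for cetuximab against PBS (edgeR FDR 0.399 to 0.874), where 3.67% of all genes were. A test of whether the cetuximab effect differed between lines called no gene in edgeR (0%), with 1318 at an unadjusted p under 0.05. Among the members CXCL2 (edgeR FDR 0.330) and CXCL3 (FDR 0.353) had the smallest values. DESeq2, which called 1.67% of the genes it tested, called both (FDR 0.000580 and 0.00186).

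To compare how many cells carried each mRNA, every cell was thinned to 15000 UMIs and the 851 shallower cells were left out. CXCL8 had at least 1 UMI in 29.8% and 23.9% of untreated SCC1 cells and in 45.9% and 15.1% of cetuximab-treated ones. In SCC6 the shares were 49.7% and 30.9% with PBS and 10.9% and 14.8% with cetuximab. In SCC25 they were 3.98% and 5.55% with PBS and 23.9% and 3.46% with cetuximab. Within each line the shares thus had the same order of samples as the levels. The exact 95% interval was 47.8% to 51.6% for untreated SCC6 replicate 1 and 9.71% to 12.1% for cetuximab replicate 1, which cover counting error only. Without thinning the same cells and the shallower ones gave 45.9% and 41.5%, then 65.0% and 28.1% in SCC1, 62.4% and 44.4%, then 13.1% and 25.2% in SCC6, and 6.82% and 8.93%, then 37.9% and 7.01% in SCC25.

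CXCL1 was found in 19.1% and 20.2% of untreated SCC1 cells and in 41.2% and 5.72% with cetuximab. In SCC25 its shares were 10.5% and 8.95% with PBS and 54.2% and 6.97% with cetuximab. In SCC6 1 cell of the 4 samples was positive after thinning, a share within the background. CXCL3 was found in 30.2% and 10.4% of untreated SCC6 cells and in 3.86% and 4.52% of treated ones. In SCC1 it stayed between 2.00% and 4.48%, and in SCC25 it was 3.25% and 3.72% with PBS and 11.1% and 6.12% with cetuximab. No test was made on shares.

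CXCL2 was found in 25.6% and 19.4% of untreated SCC1 cells and in 17.7% and 10.2% of treated ones, so that its share, unlike its level, was lower in both cetuximab samples. The SCC6 shares of CXCL2 were 11.9% and 7.47% with PBS and 1.70% and 2.62% with cetuximab. CCL20 was found in 0.371% to 3.73% of SCC1 cells and in 3.26% to 10.6% of SCC25 cells. In SCC6 its share was 1.43% and 0.452% with PBS and 0.0772% and 0.0610% with cetuximab, the latter at background. CXCL6 was found in 1.14% and 0.719% of untreated SCC25 cells and in 12.03% and 0.502% of treated ones. At least 1 member was found in 50.2% and 42.3% of untreated SCC1 cells and in 63.2% and 24.6% of treated ones. For SCC6 these shares were 59.5% and 37.1%, then 13.6% and 18.3%, and for SCC25 20.4% and 21.4%, then 68.5% and 21.5%.

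**Figure D3:**
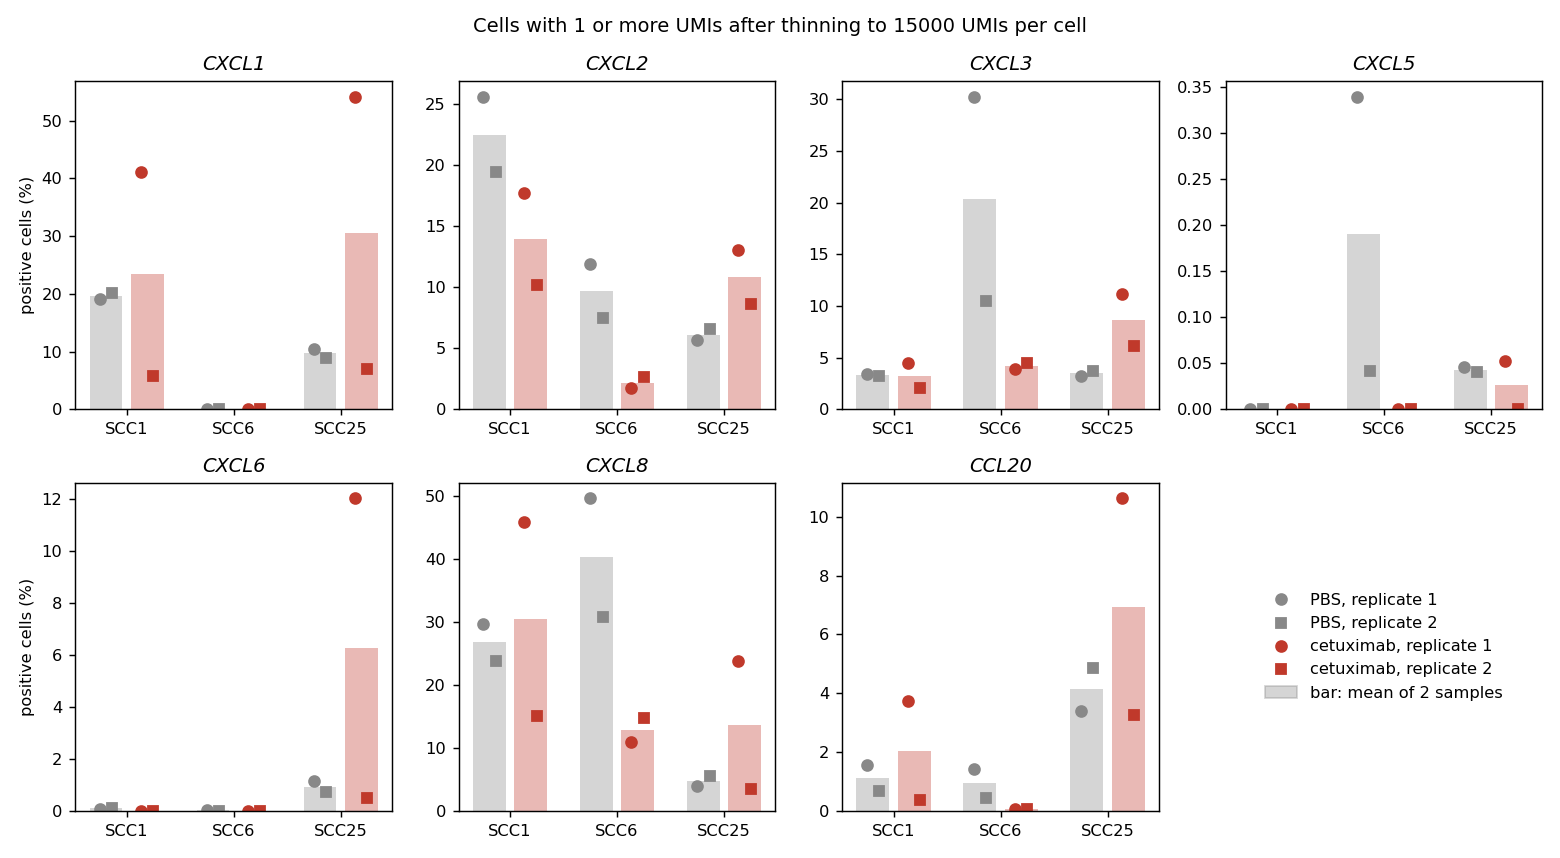
Percentage of cells with 1 or more UMIs of each gene after thinning every cell to 15000 UMIs, by line, treatment and replicate; the bars are the means of 2 samples and each panel has its own axis from 0. CXCL8 is in 49.7% and 30.9% of untreated SCC6 cells and in 10.9% and 14.8% of treated ones, and CXCL1 reaches 54.2% in SCC25 cetuximab replicate 1 and 6.97% in replicate 2.

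CXCL8 UMIs were spread unevenly over cells. In untreated SCC6 replicate 1, whose CXCL8 UMIs would be expected to reach 96.8% of cells had they been scattered at random (Poisson), 49.7% were positive. The share of CXCL8-positive cells was below this expectation in 12 of 12 samples. For CXCL1 in SCC1 cetuximab replicate 1, 41.2% of cells were positive against 94.8% expected. Some scarcer members were closer to it, such as CXCL6 in SCC25 cetuximab replicate 1 (12.03% against 14.9%) and CXCL3 in SCC1 PBS replicate 1 (3.37% against 3.64%). Others were not, such as CCL20 in SCC6 PBS replicate 1 (1.43% against 5.03%) and CXCL3 in SCC1 cetuximab replicate 1 (4.48% against 10.97%). The most extreme single cell held 1750 CXCL8 UMIs, in SCC1 cetuximab replicate 1, and 848 CXCL1 UMIs were counted in 1 untreated SCC1 cell. Positive cells had 8.06 thinned CXCL8 UMIs on average in SCC1 cetuximab replicate 1 and 2.25 in replicate 2, so that replicate 1 had both more positive cells and more UMIs in each. In SCC6 positive cells had 6.93 and 3.48 CXCL8 UMIs with PBS and 3.67 and 3.39 with cetuximab.

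Members were found together in the same cells more often than their separate shares would give. For pairs of members in a sample with at least 5 cells expected to carry both, the number of double-positive cells exceeded that expected from the separate shares in 69 of 69 cases, with a median ratio of 1.96 and a range of 1.21 to 4.81. CXCL2 with CXCL3 had a ratio of 1.91 to 3.61 over 8 samples. CXCL1 with CXCL8 had 1.45 to 4.81 over 7 samples, and CXCL8 with CCL20 had 1.68 to 4.43 over 5 samples. Of the 21 possible pairs 15 reached the limit of 5 expected cells in some sample, and pairs with CXCL6 did so in SCC25 cetuximab replicate 1 alone. The ratio was not computed for pairs of other genes, so it is not shown to be particular to the members. These ratios are a description of cells within a library and carry no test.

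Feedback and target genes of NF-κB were often highest in the same samples as the chemokines. Of the 19 NF-κB feedback and target genes listed, 16 had their highest SCC1 level in cetuximab replicate 1, as did 33.8% of all genes tested. In SCC25 18 of 19 were highest in cetuximab replicate 1 (26.3% of all genes), and in SCC6 14 of 19 were highest in PBS replicate 1 (18.2% of all genes). The summed level of the list was 1758 CPM in SCC1 cetuximab replicate 1 and 869 to 1104 CPM in the other SCC1 samples. It was 1443 CPM in SCC25 cetuximab replicate 1 against 719.6 to 808 CPM, and 1488 CPM in SCC6 PBS replicate 1 against 780.2 to 876 CPM. TNFAIP3, a deubiquitinase that ends NF-κB signalling, stood at 54.1 CPM in SCC6 PBS replicate 1 and at 12.4 to 16.6 CPM in the other SCC6 samples. SOD2, a mitochondrial superoxide dismutase and NF-κB target, stood at 243 CPM in SCC25 cetuximab replicate 1 and at 36.0 to 38.9 CPM in the other SCC25 samples. BIRC3, an inhibitor of apoptosis, stood at 492 and 88.0 CPM in untreated SCC6 and at 34.5 and 26.0 CPM with cetuximab.

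By edgeR none of the 19 NF-κB genes was called in SCC6, with 16 of 19 below 0 and a median of −0.92. The smallest FDR values belonged to BIRC3 (−3.53 ± 0.97, FDR 0.0752), the kinase IRAK2 (−1.80 ± 0.53, FDR 0.0885) and BCL3 (−1.04 ± 0.34, FDR 0.125). With the replicate block within each line 2 were called, BIRC3 (FDR 0.0216) and BCL3 (FDR 0.0227), where 20.1% of all genes were. In SCC1 and SCC25 none was called, with 16 and 17 of 19 above 0.

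Among the 12 tested cytokines that induce these chemokines or are made with them, 1 was called in SCC6, where 3.81% of all genes were. IL1B, a known inducer of these chemokines, stood at 73.8 and 47.7 CPM with PBS and at 9.95 and 14.9 CPM with cetuximab (fell by 2.53 on the log2 scale, SE 0.57, edgeR FDR 0.0406). IL1A stood at 14.1 and 4.56 CPM with PBS and at 1.13 and 2.16 CPM with cetuximab (edgeR FDR 0.104). With the block within each line IL1B, IL18 and IL1A were called (edgeR FDR 0.00584, 0.00855 and 0.0206), where 20.1% of all genes were. In SCC25 cetuximab replicate 1, IL36G stood at 12.7 CPM against 0.182 to 0.679 CPM in the other SCC25 samples, and the growth factor CSF2 at 16.9 CPM against 0.936 to 2.10 CPM.

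Among the 12 receptors and transducers of those cytokines, IL1RN, which encodes the IL-1 receptor antagonist, was called in SCC6 (3.81% of all genes called). It stood at 3.45 and 0.973 CPM with PBS and at 0.105 and 0.144 CPM with cetuximab (fell by 4.37 on the log2 scale, SE 0.82, edgeR FDR 0.0211). The 5 genes that bind AU-rich mRNA or promote its decay had no call in any line. They had 1 call in SCC6 with the block within each line, where 20.1% of all genes were called.

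Of the 9 tested antimicrobial genes that IL-17 and IL-1 induce in epithelia, 2 were called in SCC6, both lower (1.3% of all genes called lower). SLPI, a protease inhibitor of mucosal secretions, stood at 502 and 398 CPM with PBS and at 77.9 and 81.3 CPM with cetuximab (fell by 2.73, SE 0.48, edgeR FDR 0.0167). The other was S100A7, at under 1 CPM in each sample. With the replicate block within each line 5 were called, where 20.1% of all genes were. SAA1, an acute-phase apolipoprotein, stood at 1040 CPM in SCC25 cetuximab replicate 1 and at 57.3 to 125 CPM in the other SCC25 samples.

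Of the 15 genes of EGFR and MAPK output, 6 were called in SCC6, all lower (1.3% of all genes called lower). Nearly all calls of lower genes in SCC6 were lost without PBS replicate 1. Most calls of listed genes as lower in SCC6, in this and the other lists, thus depended on that sample. The block within each line called 9 of them and 20.1% of all genes. AREG, the EGFR ligand amphiregulin, stood at 515 and 115 CPM with PBS and at 7.74 and 24.7 CPM with cetuximab (fell by 4.53, SE 0.78, edgeR FDR 0.0162). The ligand gene EREG fell by 3.38 (SE 0.57, edgeR FDR 0.0144) and PHLDA1, a MAPK-responsive gene, fell by 3.81 (SE 0.60, edgeR FDR 0.0113). Within SCC1 and SCC25 none of this list was called in edgeR. The summed list was 1888 CPM in SCC6 PBS replicate 1, where the chemokines were also highest, and 166 to 649.7 CPM in the other SCC6 samples, and 13 of the 15 genes were highest there. In SCC1 cetuximab replicate 1 it was 459 CPM, the lowest SCC1 value, and 3 of 15 genes were highest there. In SCC25 it was 726 CPM in cetuximab replicate 1 and 596 to 818 CPM in the other samples, with 5 of 15 genes highest in that replicate. The part of these genes in the chemokine values was not tested.

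Of the 10 genes of dissociation and heat stress, 1 was called in SCC6 (HSPA6, lower), where 3.81% of all genes were. With the replicate block within each line 3 of 10 were called against 20.1% of all genes. The block shared by the lines called 5 of 10, against 2462 of all 17897 genes tested. The summed stress list in SCC6 was 2214 and 1778 CPM with PBS and 1403 and 2303 CPM with cetuximab, and 5 of 10 genes were highest in PBS replicate 1. In SCC25 it was 795 and 1462 CPM with PBS and 764 and 1246 CPM with cetuximab, with both replicates 1 below both replicates 2. In SCC1 it ranged from 1208 to 1524 CPM. Of the 10 other chemokines listed, 3 were called higher in the fit over the 3 lines together (3.67% of all genes called), namely CCL5, CXCL10 and CXCL11, known attractants of T cells (edgeR FDR 0.00966, 0.0190 and 0.0338). CXCL10 and CXCL11 were near the floor in SCC6, at 0.0132 to 0.0667 CPM and 0.00973 to 0.0263 CPM. CCL5 was also low there, at 0.0498 to 0.355 CPM.

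**Figure D4:**
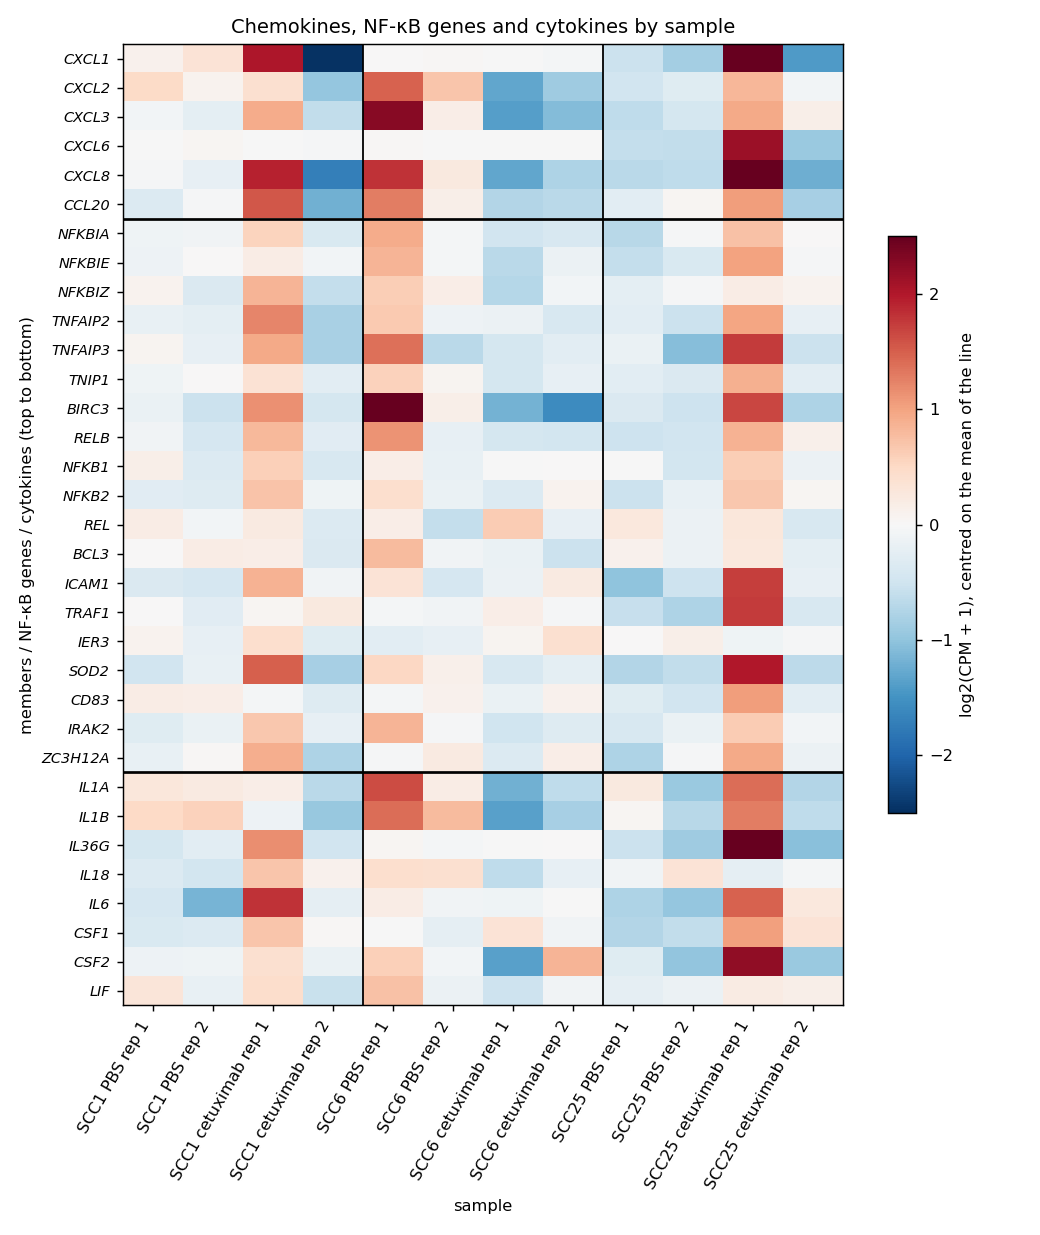
Log2(CPM + 1) of the members (top), NF-κB feedback and target genes (middle) and cytokines (bottom) with a mean of at least 1 CPM, centred on the mean of each line, in the 12 samples (columns). Red marks values above the mean of the line and blue values below it. SCC1 cetuximab replicate 1, SCC6 PBS replicate 1 and SCC25 cetuximab replicate 1 are the reddest columns of their lines.

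Over the 12 samples, with log2(CPM + 1) centred within each line, CXCL8 and CCL20 had a Pearson r of 0.95 and CXCL2 and CXCL3 one of 0.92. CXCL1 followed CXCL8 (0.85) more than CXCL2 (0.50) or CXCL3 (0.43). Among 7579 other genes with a mean of at least 10 CPM, those most like CXCL8 were TNIP1, BID and ZP3 (r from 0.93 to 0.95). Those most like CXCL1 were IKBKE, SOD2 and SAA1 (0.88 to 0.91). For CXCL2 they were NFKBIB, IL1B and SAT1 (0.91 to 0.92), and for CXCL3 LENG1, BIRC3 and RABGGTB (0.94 to 0.95). These values describe samples that share lines and libraries, and no test was made.

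Within each sample, cells with a CXCL8 UMI were set beside cells without one at the same depth of 15000 UMIs. The NF-κB list was higher in CXCL8-positive cells in 12 of 12 samples, with a ratio of mean UMIs of 1.29 to 2.31 (median 1.69). TNFAIP3 had a ratio of 1.89 to 5.47 (median 4.09) and NFKBIA, the inhibitor IκBα, one of 1.35 to 3.45 (median 2.01), both above 1 in each sample. The cytokine list (1.08 to 1.71) and the antimicrobial list (1.14 to 5.88) were also above 1 in 12 of 12 samples.

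The EGFR and MAPK list was closer to even, at 1.08 to 1.39, and the heat and dissociation stress list at 0.975 to 1.26. Squamous markers ranged from 0.793 to 1.07, above 1 in 3 of 12 samples. CXCL8-positive cells had 0.873 to 1.17 times the median UMIs of negative cells before thinning. Their median mitochondrial percentage was 0.957 to 1.11 times that of negative cells.

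**Figure D5:**
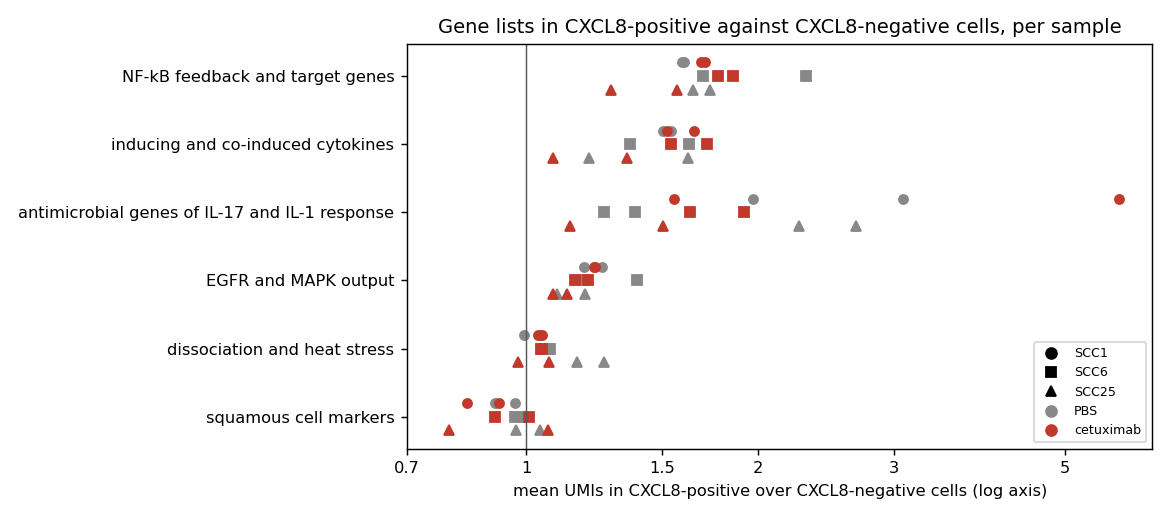
Ratio of mean UMIs in CXCL8-positive to CXCL8-negative cells for 6 gene lists, with 1 point per sample (circles SCC1, squares SCC6, triangles SCC25, grey PBS, red cetuximab) on a log axis, after thinning every cell to 15000 UMIs. The NF-κB list lies between 1.29 and 2.31 and the squamous markers between 0.793 and 1.07.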

How the data were processed

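Cells of 3 HNSCC lines were profiled with the 10x Chromium 3′ v2 kit after 5 days of cetuximab (100 nM) or PBS, in 2 replicates. The deposited values are raw UMI counts per gene and cell. Per the study's methods and the submitters' processing notes, the authors filtered and aligned reads with Cell Ranger to GRCh38 (version not given in the sources used here). A second deposited table gave each cell's sample. No doublet caller was run.

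Counts were summed per sample (57057402 to 112170073 UMIs) and tested with edgeR 4.0.16 quasi-likelihood F-tests (R 4.3.3, TMM scaling, filterByExpr, Benjamini-Hochberg adjustment over 17897 genes). One fit of the 6 groups had 6 residual degrees of freedom. An FDR under 0.05 was a call, and the SE is the log2 fold change divided by the square root of its F. Where 1 sample was left out, the lone sample of its group was assumed to vary like the other groups. DESeq2 1.42.0 was an alternative. CPM are UMIs per 1000000 UMIs of a sample. On simulated counts the fit was checked for recovery of known changes. The simulation gave all genes the same spread and no deviation shared by replicates, so it does not cover the spread of these members. Shares of positive cells used cells thinned to 15000 UMIs (10000 as an alternative) with exact binomial 95% intervals, and a count of 0 was read as allowing up to 3 counts. Interval and floor values cover counting error only.

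Same-numbered replicates deviated together (r from their group means of 0.377 in SCC1, 0.349 in SCC6 and 0.598 in SCC25). Groups of different lines did so as well, with r from 0.177 to 0.428. Fits with the replicate as a block, within each line or shared by the lines, were therefore alternatives. The labels speak of treatment in duplicate and the methods of sequencing in duplicate, so p-values measure the spread between samples, which may be technical.

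The members and gene lists were chosen with earlier results of these data known. In some comparisons members are given by name, and in others only within a range or a count. From each list at most the 3 genes with smallest p in each direction are named. Genes named for their level in 1 sample (TNFAIP3, SOD2, SAA1, IL36G, CSF2 and HSPA6) were chosen after their values were seen. So were the promoter motifs and the 5-fold limit on replicates. Promoters came from RefSeq (GRCh38.p14). Bulk and chromatin data of the study were not used here.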

Additional observations from a re-analysis of the deposited data

Results flagged for a closer look

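CXCL2 and CXCL3 were flagged because their cetuximab samples lay on opposite sides of the PBS samples in 2 lines. In SCC6 both cetuximab samples were below both PBS samples, as in 11.6% of all genes tested. In SCC25 both were above both PBS samples, as in 16.3% of all genes tested. How many genes showed both patterns was not counted. The ratio of mean CPM with cetuximab to that with PBS was 0.155 in SCC6 and 1.92 in SCC25 for CXCL2. For CXCL3 it was 0.122 in SCC6 and 2.57 in SCC25. The test of a difference between the 3 lines gave an edgeR FDR of 0.330 for CXCL2 and 0.353 for CXCL3. The DESeq2 FDR was 0.000580 and 0.00186, and the edgeR FDR with the replicate block within each line 0.0608 and 0.112. In SCC25 neither gene was called.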

How the results depend on the processing

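Counts of genes called for cetuximab against PBS moved with the tool and the block. In SCC1 (3 genes) they were 274 in DESeq2, 243 without the filter on low counts, 797 and 133 with the replicate block within each line and shared by the lines, and 0 on the 4 samples of the line alone. In SCC6 (682) they were 1671, 1233, 3589, 2462 and 265, and without the filter 4 members were called. In SCC25 (0) they were 101, 128, 175 and 29 with the first 4 of these settings, and 1 gene each without the 5% of cells with most UMIs and after thinning cells before summing. Across the lines (656) they were 1771, 1043, 2073 and 2070. For the difference between lines (0) they were 276 (2 members), 248 (4 members), 230 and 18. For untreated SCC6 against SCC1, 4 members were called without the filter and on the 6 untreated samples alone; for SCC25 against SCC1, 1 after thinning and 5 on the untreated samples alone. Apart from the calls named with each result, the replicate block changed no call of a member. The block within each line could not be used between untreated lines.

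Signs turned for uncalled differences. The SCC1 difference of CXCL1 was −0.50 with the block within each line and −0.52 with the shared block. Across the lines CXCL6 was −0.94 in DESeq2, and CXCL8 was −0.43 and −0.15 with the 2 blocks.

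With 1 sample left out at a time, the genes called ranged from 0 to 6 in SCC1, 11 to 749 in SCC6 (11 without PBS replicate 1), 0 to 1 in SCC25, 202 to 596 across the lines and 0 to 14 for the difference between lines. Between untreated lines they ranged from 4754 to 7328 for SCC6 against SCC1 and from 4707 to 7491 for SCC25 against SCC1. Members called ranged from 0 to 3 in SCC6, 2 to 3 for untreated SCC6 against SCC1, 1 to 3 for SCC25 against SCC1 and 1 to 5 for SCC6 against SCC25. Log2 differences with a turned sign ranged in SCC1 from −2.85 to 1.75 for CXCL1, −1.36 to 0.050 for CXCL2, −0.66 to 1.20 for CXCL3, −1.67 to 1.99 for CXCL8 and −2.38 to 2.13 for CCL20. In SCC25 they ranged from −0.80 to 3.55 for CXCL1, −0.94 to 3.82 for CXCL6, −0.68 to 3.30 for CXCL8 and −0.95 to 1.24 for CCL20. Across the lines they ranged from −0.88 to 0.27 for CXCL3, −1.44 to 2.17 for CXCL6, −0.70 to 1.07 for CXCL8 and −1.87 to 0.16 for CCL20. Between untreated lines they ranged from −1.79 to 0.66 for CXCL6 and −0.54 to 1.30 for CCL20 in SCC6 against SCC1, and from −0.18 to 0.21 for CXCL3 in SCC25 against SCC1. The cause of these changes was not tested. CXCL5 in every line, CXCL1 in SCC6 and CXCL6 in SCC1 and SCC6 were limited by depth.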
